A study of Mus musculus with 29 samples.

Results

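The genes described here are 10 mouse genes known from axon regeneration and neuronal injury, namely Atf3, Jun, Klf6, Sox11, Gap43, Basp1, Stmn4, Sprr1a, Rtn4 and Rtn4r. They were chosen by symbol, each from the row of its Ensembl identifier, out of 25746 genes in the count data. Reads per gene were measured by polyA RNA sequencing in 29 libraries of cortical tissue in 8 groups. Adult mice of both sexes, 3 months old in the study's methods, received a photothrombotic stroke, in which a light-activated dye clots the vessels of the right sensorimotor cortex, and tissue was taken at 21 days post injury (dpi). The stroked groups were C57BL/6J wildtype (WT, n = 4), WT given the calcineurin inhibitor tacrolimus from an implanted pump from day 0 (WT-Tacr acute, n = 3) or from day 7 (WT-Tacr delayed, n = 5), Rag2-/- mice, which lack mature T and B cells (n = 3), and NSG mice, which lack T, B and natural killer cells on a NOD background (n = 3). The non-stroked groups were WT (n = 4), Rag2-/- (n = 3) and NSG (n = 4). The study's methods describe control tissue from the side opposite the stroke and its results describe naive mice. These controls are labelled Ctrl and are called non-stroked here. Those methods also list 4 NSG mice for sequencing, against 3 stroked and 4 non-stroked NSG libraries here. Whether stroked and non-stroked libraries share animals is therefore not known. Each library is called a mouse here, and the main tests are unpaired. Non-stroked mice given tacrolimus were not analysed here, so both tacrolimus groups and WT were set against the same 4 non-stroked WT mice. Both genetic strains lack their lymphocytes from birth, so a strain group is a model of lifelong deficiency and the tacrolimus groups of treatment begun in adults.

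An injured neuron that regrows its axon switches on a growth programme. Transcription factors such as ATF3, JUN, KLF6 and SOX11 are induced in the cell body, and proteins of the growth cone such as GAP43, BASP1 and the stathmins are made in large amounts for the new axon tip. Peripheral neurons carry this out readily, whereas in the adult brain it is weak, partly because Nogo-A (from Rtn4) on myelin binds the Nogo receptor (from Rtn4r) and halts the growth cone. Several of these genes are also used outside neurons: ATF3 and JUN are general stress and immediate early factors that immune and glial cells make as well.

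The 2 sample label prefixes, Imm2 (20 libraries) and TF (9 libraries), are called cohorts here. Total counts were 17789044 to 43403413 per library, and their medians were 37223696 for Imm2 and 23155303 for TF libraries. All non-stroked, Rag2-/- and NSG libraries were Imm2 and all WT-Tacr delayed libraries were TF, so delayed treatment and cohort cannot be told apart against the non-stroked mice, while stroked WT (2 and 2) and WT-Tacr acute (1 and 2) held both. Summed neuron markers were 4702 to 8517 CPM (counts scaled to the TMM library size) and summed markers of cortical projection neurons 214 to 785 CPM over all libraries, with no neuron marker at 0 in any of them. Choroid plexus markers summed to over 100 CPM in 13 libraries of both cohorts and to as little as 4.54 CPM in others. WT-Tacr acute mice 1 and 2 stood apart from every other stroked mouse: their fibroblast markers summed to 63.4 and 31.4 CPM and their microglia and macrophage markers to 232 and 246 CPM, against 161 to 1530 CPM and 342 to 565 CPM in the other stroked mice and 28.4 to 102 CPM and 183 to 278 CPM in the non-stroked mice. Values for stroke in the acute group are therefore given with and without them for the members and for the list genes named in that group. Without them the group is 1 mouse, assumed to vary like the others.

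**Figure D1:**
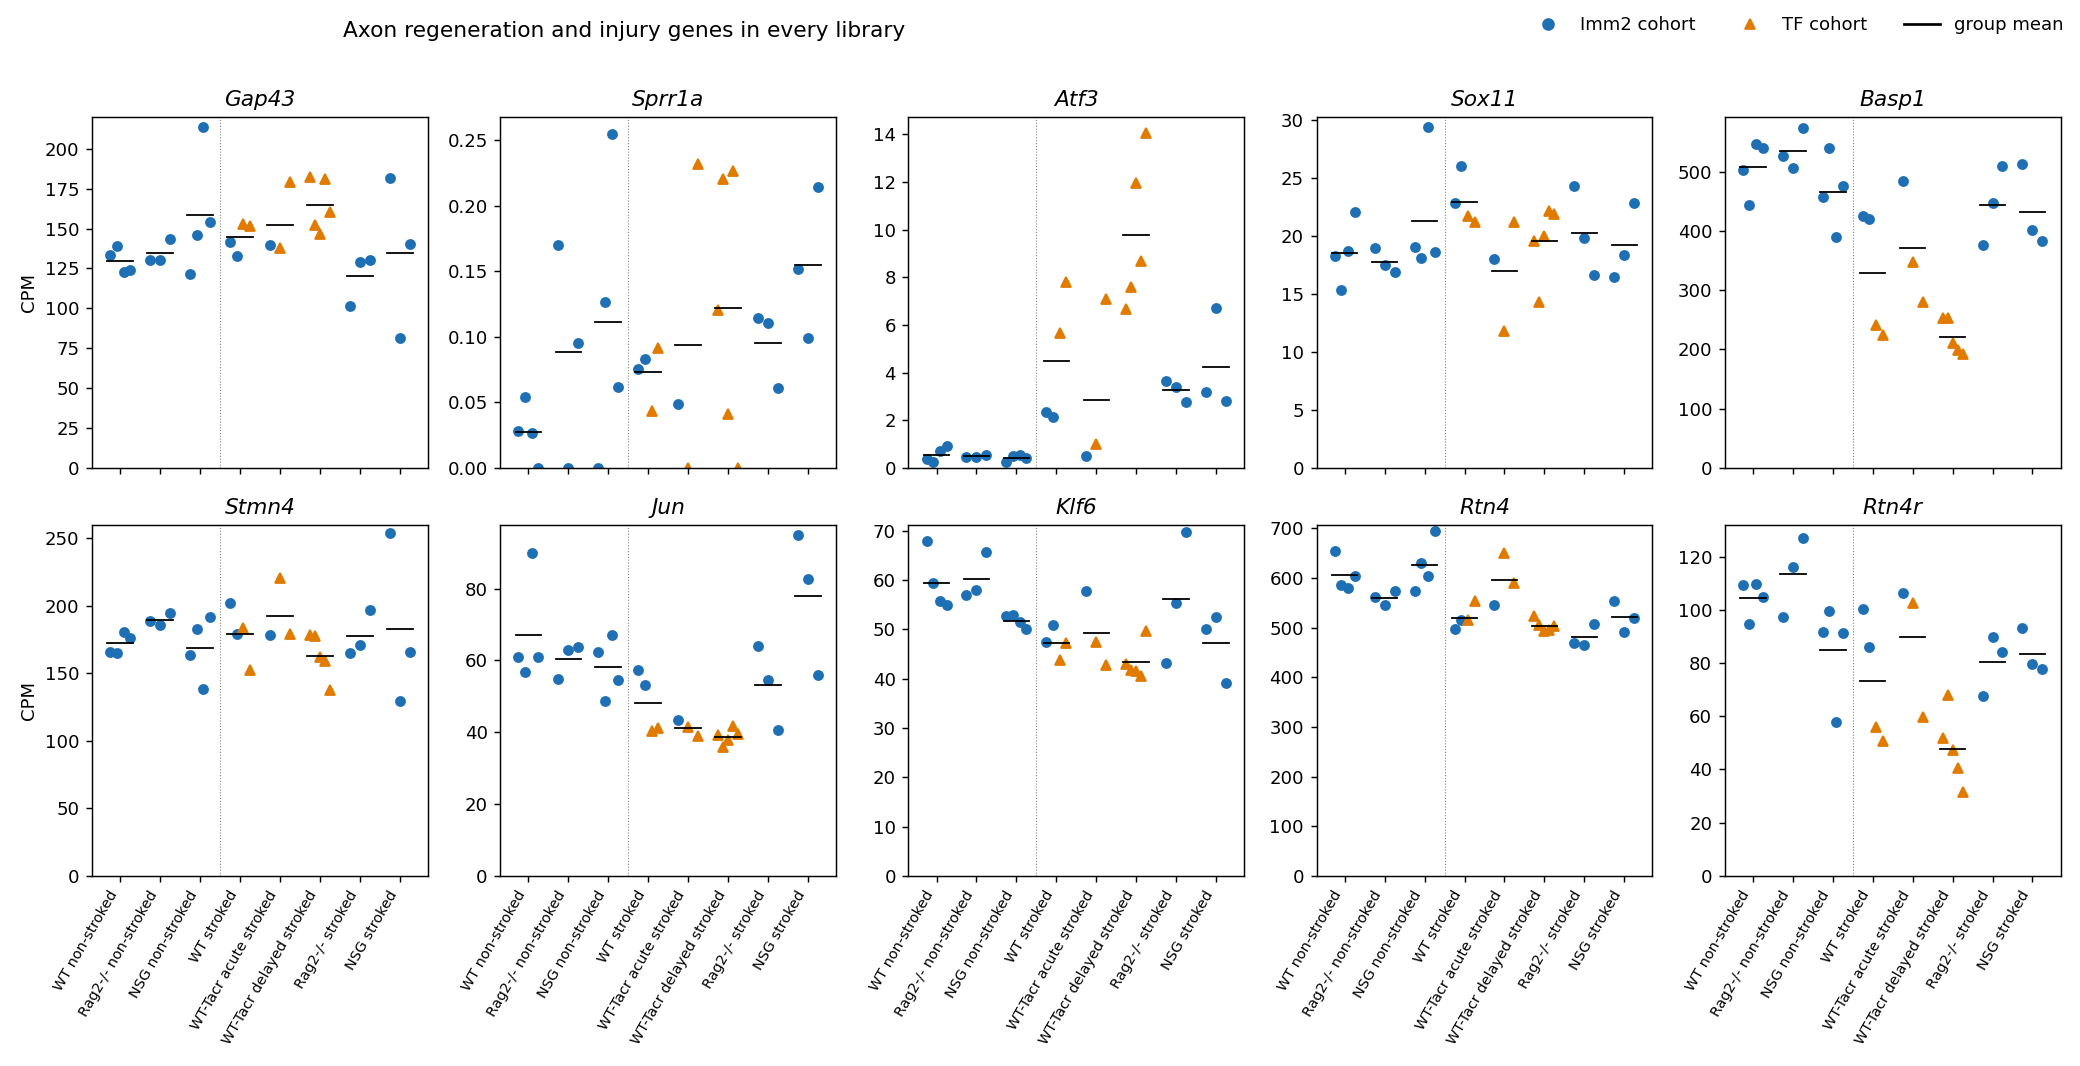
Level of each of the 10 genes in CPM (y axis from 0) in every library, by group (x axis); blue circles are Imm2 libraries, orange triangles TF libraries and black bars group means. Atf3 stands at 0.245 to 0.907 CPM in non-stroked mice and above 2 CPM in all stroked mice except WT-Tacr acute mice 1 and 2, whereas the TF libraries hold the lowest Basp1 values and most of the low Jun and Rtn4r values.

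Of the 10 genes, 9 passed the filter on low counts and were tested, and Sprr1a did not. A gene is called higher or lower at an adjusted p below 0.05 in edgeR's quasi-likelihood test, adjusted by Benjamini-Hochberg over the 17031 genes tested, and fold changes are log2 values ± SE. Stroke in WT called 1 of the 9 higher and 4 lower, where 15.2% of all tested genes were called higher and 11.6% lower. In WT-Tacr acute mice 1 was higher and 1 lower (background 6.18% and 2.36%), in WT-Tacr delayed mice 1 was higher and 5 lower (27.6% and 27.6%), in Rag2-/- mice 1 was higher and 0 lower (6.71% and 1.53%), and in NSG mice 1 was higher and 1 lower (13% and 8.89%). The gene called higher was Atf3 in every one of these 5 comparisons. The median log2 fold change of the 9 genes was -0.22 in WT, -0.13 in WT-Tacr acute, -0.27 in WT-Tacr delayed, -0.16 for Rag2-/- and -0.11 for NSG mice, and that of all tested genes lay between -0.0033 and 0.0299 in these comparisons. In bulk tissue, fewer cells of a type and less RNA per cell cannot be told apart.

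**Figure D2:**
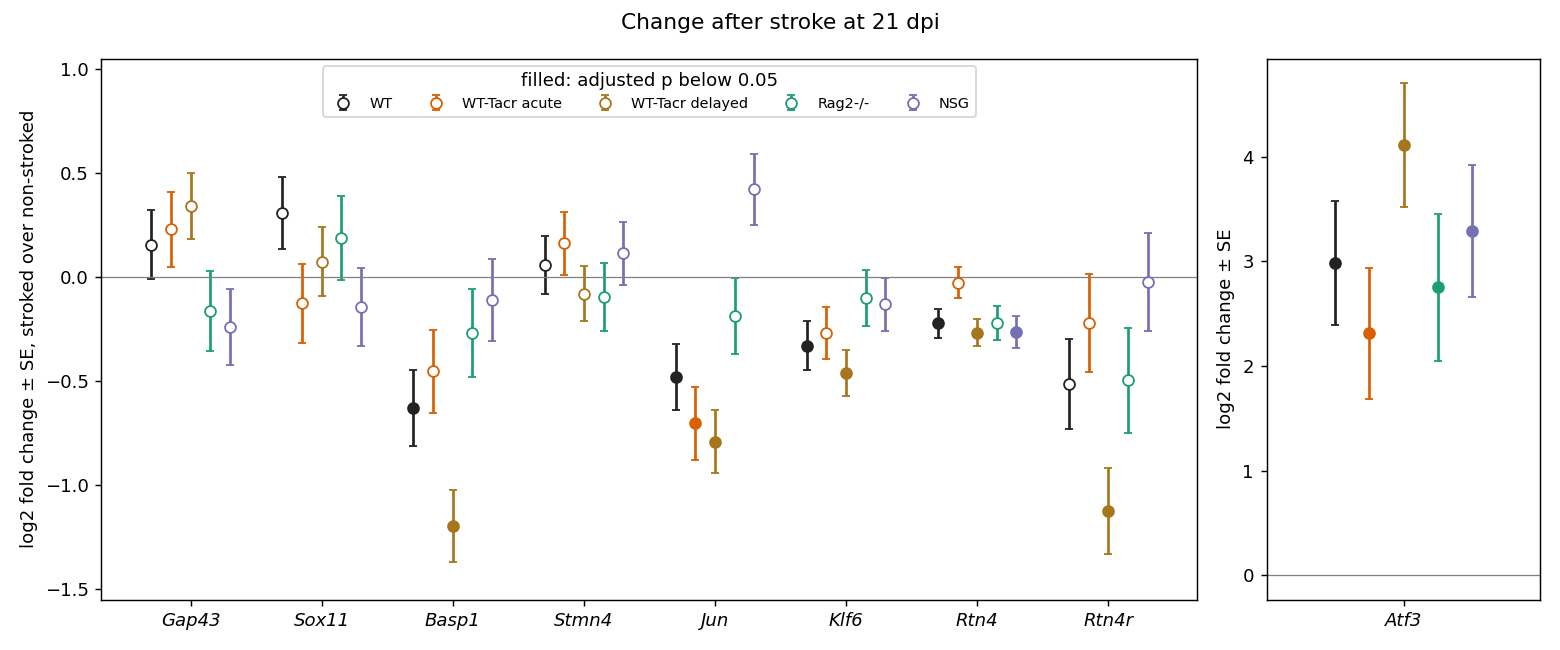
Log2 fold change ± SE of the 9 tested genes, stroked over non-stroked mice of the same strain, with Atf3 on its own y axis (right); filled points have an adjusted p below 0.05. Atf3 lies between 2.31 and 4.11 in all 5 groups, while the called changes of Basp1, Jun, Klf6, Rtn4 and Rtn4r are all below 0.

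ATF3, a stress-induced partner of JUN and one of the first factors switched on in an axotomised neuron, was the member that changed most. Atf3 (GRCm38 chromosome 1, 191170296 to 191218039, minus strand) stood at 0.37, 0.245, 0.716 and 0.907 CPM in the 4 non-stroked WT mice, at 0.453, 0.456 and 0.54 CPM in non-stroked Rag2-/- mice and at 0.263, 0.508, 0.539 and 0.402 CPM in non-stroked NSG mice. After stroke it stood at 2.35, 2.14, 5.65 and 7.79 CPM in WT mice, at 3.64, 3.41 and 2.76 CPM in Rag2-/- mice and at 3.19, 6.7 and 2.82 CPM in NSG mice. The stroked and non-stroked mice of these 3 strains did not overlap. The increase was 2.98 ± 0.59 in WT (7.9-fold, adjusted p = 0.000754), 2.75 ± 0.70 for Rag2-/- (6.74-fold, adjusted p = 0.0146) and 3.29 ± 0.63 for NSG mice (9.79-fold, adjusted p = 0.000898). The call in Rag2-/- mice was lost without any 1 of the 3 non-stroked mice or without stroked mouse 1, at 2.67 to 2.83 (adjusted p = 0.053 to 0.067).

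In WT-Tacr delayed mice Atf3 stood at 6.68, 7.59, 11.96, 8.69 and 14.04 CPM, the highest group mean of the study at 9.79 ± 3.10 CPM (SD, n = 5), and the increase over non-stroked WT was 4.11 ± 0.59 (adjusted p = 5.65e-06). WT-Tacr acute mice were split, with 0.487 and 0.999 CPM in mice 1 and 2 and 7.07 CPM in mouse 3. The increase of 2.31 ± 0.63 in that group (adjusted p = 0.0263) rested on mouse 3: without it the value was 0.33 (adjusted p = 0.841), and with mouse 3 alone it was 3.66 (adjusted p = 5.68e-05). The call was also lost without non-stroked WT mouse 1 (2.16, adjusted p = 0.0796) or mouse 2 (2.07, adjusted p = 0.0663). In the order of group means, WT-Tacr delayed was followed by WT (4.48 ± 2.73 CPM), NSG (4.23 ± 2.14 CPM), Rag2-/- (3.27 ± 0.46 CPM) and WT-Tacr acute (2.85 ± 3.66 CPM), and each of the last 4 lay within the spread of its neighbour.

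Cohort moved with the size of this increase. Stroked WT mice of the Imm2 cohort had 2.35 and 2.14 CPM of Atf3 and those of the TF cohort 5.65 and 7.79 CPM. Within the Imm2 cohort alone the increase in WT was 1.999 (adjusted p = 0.0033), and with cohort as a covariate it was 1.77 in WT (adjusted p = 0.0222), 2.07 in WT-Tacr delayed (adjusted p = 0.0438) and 0.58 in WT-Tacr acute mice (adjusted p = 0.743), each resting on a cohort difference estimated from stroked WT and WT-Tacr acute mice. Summed microglia and macrophage markers were 342 to 565 CPM in the 16 stroked mice other than WT-Tacr acute mice 1 and 2, and 7 of these 8 markers were called higher in WT, WT-Tacr delayed and NSG and 5 in WT-Tacr acute and Rag2-/- mice, and all were above 0 in every library. All 5 fibroblast markers were called higher in WT, WT-Tacr delayed, Rag2-/- and NSG mice and 2 of them in WT-Tacr acute mice. The part of these cell types in the Atf3 increase was not tested. In the 16 libraries whose choroid plexus markers summed to at most 100 CPM, Atf3 was higher by 2.88 in WT, 3.21 in WT-Tacr acute and 2.68 in Rag2-/- mice. None of these values passed (adjusted p = 0.183 to 0.222), and the WT mice left were all Imm2. The values were 4.64 in WT-Tacr delayed and 3.62 in NSG mice. There the limit left only delayed mouse 2 (12.3 CPM of these markers) and only non-stroked NSG mouse 4 (16.5 CPM), each assumed to vary like the others. Among the 3 genes with the pattern most like that of Atf3 over the 29 libraries were Tyrobp and Cd48, with Pearson's r of 0.981 and 0.978 of log2 CPM, a description over libraries that share strain, stroke and cohort.

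The 250 bases before 1 of the annotated starts of Atf3 are shown because it was the only member called higher, and those of Sprr1a because they hold both copies of the AP-1 motif found before a start among the members. The AP-1 motif TGANTCA is the site bound by JUN and FOS dimers, and the CRE motif TGACGTCA that bound by CREB and ATF family dimers, and the letters of either can occur on both strands. Windows of 300 bases around RefSeq starts (GRCm38.p6) were given for 8 of the 10 genes, 10 windows in all, with none for Gap43 and Stmn4. AP-1 occurred in 7.81% and CRE in 1.79% of all 32851 such windows. Among the members AP-1 occurred 2 times in the Sprr1a window, at 146 and 116 bases before the start, and 1 time in 1 of the 3 Rtn4 windows, after the start. No window of the members held the CRE letters, which says only that these letters are absent from these windows. The capitals mark AP-1.
Atf3 (GRCm38.p6, chr1:191183334-191183583, minus strand): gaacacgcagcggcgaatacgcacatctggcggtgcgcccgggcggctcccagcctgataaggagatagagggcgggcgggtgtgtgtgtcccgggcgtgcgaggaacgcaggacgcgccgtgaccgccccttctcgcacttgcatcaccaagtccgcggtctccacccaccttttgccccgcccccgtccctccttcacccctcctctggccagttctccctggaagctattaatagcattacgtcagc
Sprr1a (GRCm38.p6, chr3:92485882-92486131, minus strand): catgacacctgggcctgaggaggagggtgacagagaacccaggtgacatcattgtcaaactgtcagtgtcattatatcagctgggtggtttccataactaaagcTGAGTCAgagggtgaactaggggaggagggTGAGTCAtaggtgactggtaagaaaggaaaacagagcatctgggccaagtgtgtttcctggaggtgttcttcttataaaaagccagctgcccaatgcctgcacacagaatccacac

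JUN is the core AP-1 subunit and is needed for efficient regeneration of injured peripheral nerves. Jun (chromosome 4, 95049034 to 95052222, minus strand, overlapped on the other strand by Junos) stood at 60.9, 56.8, 89.9 and 60.8 CPM in non-stroked WT mice and at 57.4, 53.3, 40.5 and 41.2 CPM in stroked WT mice, where mouse 1 reached the range of the non-stroked mice. It was lower by 0.48 on the log2 scale (-0.48 ± 0.16, adjusted p = 0.0276). With only libraries of at most 100 CPM of choroid plexus markers, Jun was lower by 0.063 (-0.063, adjusted p = 0.877). That limit leaves out non-stroked WT mice 3 and 4 and stroked WT mice 3 and 4. The latter are the TF mice, so choroid plexus content and cohort cannot be told apart here. The 3 WT-Tacr acute mice, at 43.4, 41.4 and 38.8 CPM, and the 5 WT-Tacr delayed mice, at 39.2, 35.7, 37.8, 41.8 and 39.4 CPM, all lay under every non-stroked mouse, with changes of -0.70 ± 0.17 (adjusted p = 0.0186) and -0.79 ± 0.15 (adjusted p = 0.000126). Non-stroked WT mouse 3 was far above the other 3, and without it the change was -0.31 in WT (adjusted p = 0.152) and -0.53 in WT-Tacr acute mice (adjusted p = 0.0605). The WT call was lost also without stroked WT mouse 3 (-0.41, adjusted p = 0.0998) or mouse 4 (-0.41, adjusted p = 0.102), and within the Imm2 cohort the change was -0.27 (adjusted p = 0.468). With cohort as a covariate it was -0.48 in WT-Tacr delayed mice (adjusted p = 0.177). The WT-Tacr acute call was lost without mouse 3 (-0.67, adjusted p = 0.171), and without mice 1 and 2 that group's change was -0.78 (adjusted p = 0.0507).

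In NSG mice the sign of the Jun difference was opposite, but the difference did not pass the test. Non-stroked NSG mice had 62.4, 48.6, 67 and 54.5 CPM and stroked NSG mice 94.8, 82.8 and 55.9 CPM, a difference of 0.42 ± 0.17 (adjusted p = 0.074) in groups that overlapped by stroked mouse 3, without which it passed (0.60, adjusted p = 0.0119). In Rag2-/- mice the values were 54.9, 62.8 and 63.7 CPM without and 64.1, 54.4 and 40.6 CPM with stroke (-0.19 ± 0.18, adjusted p = 0.614). The NSG response exceeded the WT response by 0.90 ± 0.23 (adjusted p = 0.126 in edgeR), and this difference was called in DESeq2 (0.89, adjusted p = 0.0353) and without stroked NSG mouse 3 (1.10, adjusted p = 0.017). Of the 2 cohorts, the TF mice held the low stroked WT values, and within the Imm2 cohort the NSG response exceeded that of WT by 0.68 (adjusted p = 0.719).

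KLF6, a zinc finger factor that promotes axon growth when overexpressed in cortical neurons, fell in WT and WT-Tacr delayed mice. Klf6 (chromosome 13, 5861482 to 5870394, plus strand) stood at 67.9, 59.4, 55.8 and 54.9 CPM in non-stroked WT, at 47.5, 50.8, 43.8 and 47.2 CPM in stroked WT and at 42.9, 41.7, 41.6, 40.6 and 49.6 CPM in WT-Tacr delayed mice, and neither stroked group overlapped the non-stroked mice. The changes were -0.33 ± 0.12 (adjusted p = 0.037) and -0.46 ± 0.11 (adjusted p = 0.00115). The WT call was lost without any 1 of 5 mice, at -0.33 to -0.26 (adjusted p = 0.0537 to 0.137), and with cohort as a covariate the values were -0.22 in WT (adjusted p = 0.257) and -0.25 in WT-Tacr delayed mice (adjusted p = 0.356). In WT-Tacr acute mice, at 57.8, 47.5 and 42.8 CPM, the difference was -0.27 ± 0.13 (adjusted p = 0.167). It passed without mouse 1 (-0.42, adjusted p = 0.0334) but not without mice 1 and 2 (-0.46, adjusted p = 0.0731). Rag2-/- mice spread from 43.1 to 69.7 CPM after stroke and NSG mice from 39.1 to 52.6 CPM, with differences of -0.10 ± 0.13 and -0.13 ± 0.13 (adjusted p = 0.729 and 0.474).

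SOX11, a factor of immature neurons that is re-expressed in regenerating sensory neurons, was not called in any of the 13 comparisons of the fit to all groups. Sox11 (chromosome 12, 27334264 to 27342574, minus strand) stood at 18.6 ± 2.75 CPM in non-stroked and 23 ± 2.17 CPM in stroked WT mice (SD, n = 4 each), a difference of 0.31 ± 0.17 (adjusted p = 0.193). With the replicate block, in fewer libraries, it was called (0.41, adjusted p = 0.0296), and in the same libraries without the block it was not (0.39, adjusted p = 0.173). The other 4 differences after stroke ran from -0.15 in NSG to 0.19 in Rag2-/- mice, and that in WT-Tacr acute mice was -0.13 with and 0.20 without mice 1 and 2. The 3 WT-Tacr acute mice, at 18, 11.8 and 21.17 CPM, all lay below the 4 stroked WT mice, at 21.23 to 26.1 CPM (-0.43 ± 0.19, adjusted p = 0.35). Summed markers of immature neurons were 63.6 to 178 CPM over all libraries, and of these 5 markers 2 were called higher in WT and in WT-Tacr delayed mice and 1 lower in NSG mice.

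The growth cone genes were all abundant in non-stroked mice, and stroke raised none of them past the test in the fit to all groups. On the scale of CPM per kilobase of exon, the mean over all 29 libraries was 200.2 for Basp1, 94.6 for Gap43 and 92.2 for Stmn4, against 17.1 for Jun, 11.7 for Klf6, 2.37 for Sox11 and 1.65 for Atf3. GAP43 is the classical growth cone protein, which binds calmodulin and organises the actin skeleton under the membrane. Gap43 (chromosome 16, 42248442 to 42340651, minus strand, with Mir6540 inside it on the same strand) stood at 133, 139, 123 and 124 CPM in non-stroked WT, at 142, 133, 153 and 152 CPM in stroked WT and at 182, 152, 147, 181 and 160 CPM in WT-Tacr delayed mice. The last group lay above all non-stroked WT mice, but its difference of 0.34 ± 0.16 did not pass (adjusted p = 0.0715), whereas a fit of only these 9 mice called it (0.35, adjusted p = 0.00116) and with cohort as a covariate it was 0.18 (adjusted p = 0.702). The differences in WT, WT-Tacr acute, Rag2-/- and NSG mice were 0.16 ± 0.17, 0.23 ± 0.18, -0.16 ± 0.19 and -0.24 ± 0.18, and without WT-Tacr acute mice 1 and 2 that of their group was 0.48 ± 0.26 (adjusted p = 0.188). Stroked NSG mice ranged from 81.1 to 182 CPM and non-stroked NSG mice from 122 to 213 CPM, wider than any WT group.

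BASP1, a membrane protein with the same calmodulin- and lipid-binding behaviour as GAP43, fell after stroke in WT and WT-Tacr delayed mice, both of which held TF libraries. Basp1 (chromosome 15, 25363277 to 25413764, minus strand) stood at 502, 443, 546 and 540 CPM in non-stroked WT mice. Stroked WT mice had 425 and 420 CPM in the Imm2 cohort and 241 and 225 CPM in the TF cohort, all below the non-stroked mice. The change over both cohorts was -0.63 ± 0.18 (adjusted p = 0.0132). Without stroked mouse 3 or 4 it was -0.51 or -0.49 (adjusted p = 0.0628 and 0.0687). Within the Imm2 cohort it was -0.26 (adjusted p = 0.287), and with cohort as a covariate -0.31 (adjusted p = 0.134).

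WT-Tacr delayed mice had the lowest Basp1 of the study, at 253, 253, 210, 199 and 192 CPM, a change of -1.20 ± 0.17 (adjusted p = 5.92e-06) that became -0.43 (adjusted p = 0.118) with cohort as a covariate. WT-Tacr acute mice stood at 485 CPM in the Imm2 mouse and at 348 and 280 CPM in the TF mice (-0.45 ± 0.20, adjusted p = 0.139). Without the Imm2 mouse the change was -0.71 (adjusted p = 0.0227), and without mice 1 and 2 it was -0.85 (adjusted p = 0.0416). The Rag2-/- and NSG strains, all Imm2, had 377, 447 and 509.5 CPM and 512, 401 and 382 CPM after stroke, with differences of -0.27 ± 0.21 (adjusted p = 0.508) and -0.11 ± 0.20 (adjusted p = 0.728).

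STMN4, a neuronal stathmin that regulates microtubules in growing axons, stayed between 130 and 254 CPM in all libraries, and both extremes were stroked NSG mice. Stmn4 (chromosome 14, 66344296 to 66361680, plus strand) had a mean of 172 ± 7.7 CPM in non-stroked WT and 179 ± 20.4 CPM in stroked WT mice, and the 5 differences after stroke ran from -0.10 ± 0.16 in Rag2-/- to 0.16 ± 0.15 in WT-Tacr acute mice, with the smallest adjusted p at 0.505. Without acute mice 1 and 2 the last was 0.07 ± 0.22 (adjusted p = 0.858).

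SPRR1A is an epidermal envelope protein that injured sensory neurons switch on and that promotes axon outgrowth. Sprr1a (chromosome 3, 92483952 to 92485895, minus strand) was near the limit of detection in every group. It had 0 to 9 counts per library, or at most 0.255 CPM. In 5 libraries, of which 3 were non-stroked and 2 stroked, it had 0 counts, which at 3 counts per library allows up to 0.0781 to 0.169 CPM, for counting error only. The 18 stroked mice summed to 61 counts and the 11 non-stroked mice to 29 counts, and no test was made at this depth. Of the 20 other small proline-rich and epidermal envelope genes listed, 5 passed the filter and 1 was called, in all 5 stroke comparisons. That gene was Tgm1, the transglutaminase that cross-links the epidermal envelope, with 2 to 3 counts per library in non-stroked WT and 153 to 487 counts in stroked WT mice, a log2 fold change of 7.16 ± 1.06 (adjusted p = 5.45e-05). The change was 5.97 ± 1.11 in WT-Tacr acute mice (27, 2 and 303 counts in mice 1, 2 and 3, and 7.49 ± 0.79 without mice 1 and 2), 7.75 ± 1.04 in WT-Tacr delayed, 7.20 ± 1.28 for Rag2-/- and 6.26 ± 0.95 for NSG mice, and 2 of the 3 non-stroked Rag2-/- mice were at 0 counts. The list's median of the 5 tested genes was 0.02 in WT.

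**Figure D3:**
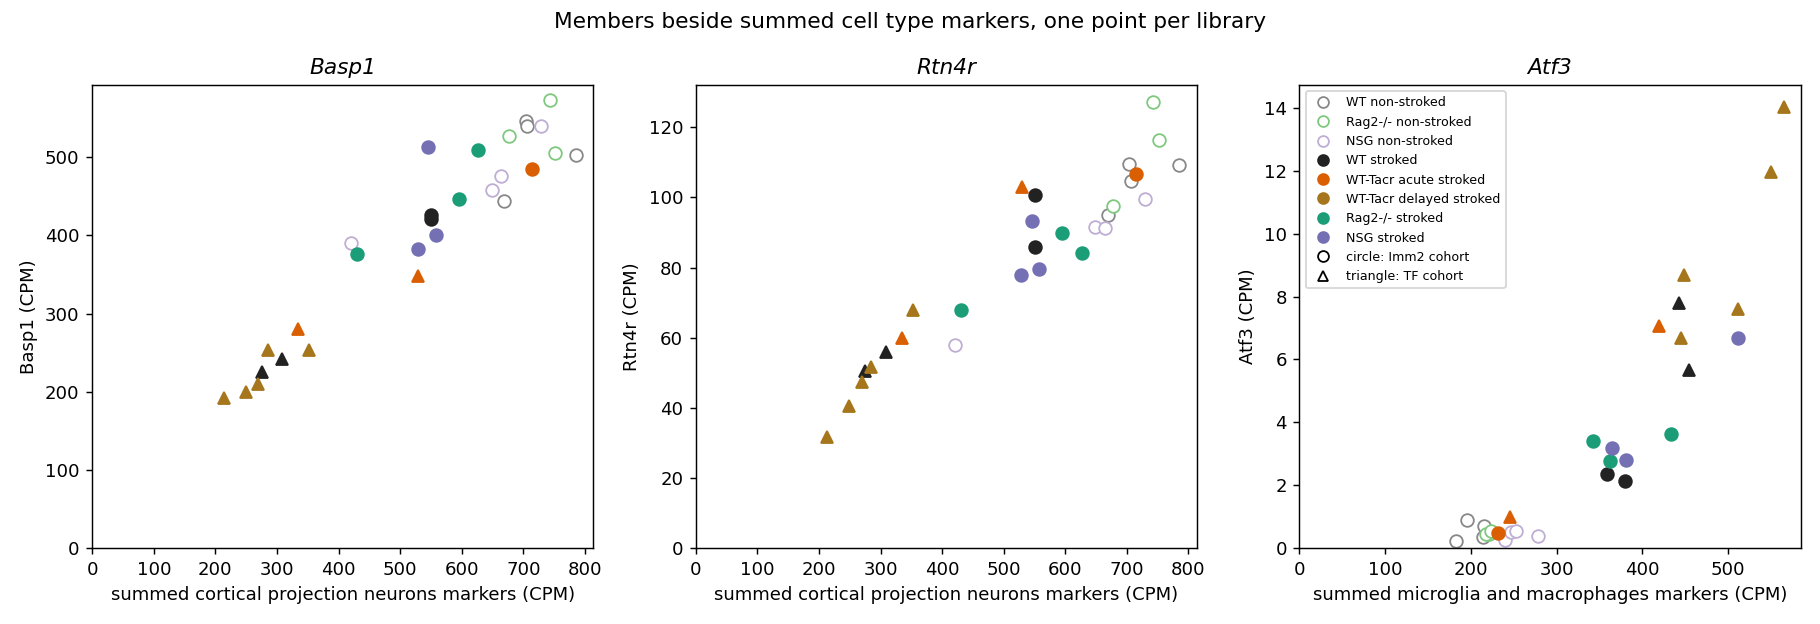
Basp1 and Rtn4r (CPM, y axes) against the summed markers of cortical projection neurons, and Atf3 against the summed markers of microglia and macrophages (CPM, x axes), with 1 point per library coloured by group, open where non-stroked, circles for Imm2 and triangles for TF. The TF libraries, at 214 to 530 CPM of cortical projection neuron markers, hold the lowest Basp1 values, and WT-Tacr acute mice 1 and 2 lie with the non-stroked mice in the Atf3 panel.

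RTN4 is the reticulon that includes Nogo-A, made by oligodendrocytes and neurons. Rtn4 (chromosome 11, 29692947 to 29744331, plus strand, overlapped by Eml6 on the other strand) is one gene with several isoforms, which the counts do not separate. It stood at 655, 587, 581 and 605 CPM in non-stroked WT and at 497, 516, 515 and 553 CPM in stroked WT mice, which did not overlap. The difference was small and close in size in 4 of the 5 groups: -0.22 ± 0.07 in WT (adjusted p = 0.0207), -0.27 ± 0.07 in WT-Tacr delayed (adjusted p = 0.00154), -0.26 ± 0.08 in NSG (adjusted p = 0.015) and -0.22 ± 0.08 in Rag2-/- mice, where it did not pass (adjusted p = 0.0955). The WT call was lost without non-stroked mouse 1 (-0.18, adjusted p = 0.0853) or stroked mouse 3 (-0.22, adjusted p = 0.051), and the NSG call without stroked mouse 2 (-0.23, adjusted p = 0.0527) or non-stroked mouse 4 (-0.21, adjusted p = 0.0585). DESeq2 called the difference in Rag2-/- mice (-0.23, adjusted p = 0.0167).

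Stroked Rag2-/- mice had 470, 464 and 508 CPM of Rtn4, below all 3 non-stroked Rag2-/- mice at 561, 545 and 573 CPM. Stroked NSG mice had 553, 491 and 521 CPM, below all non-stroked NSG mice at 575 to 696 CPM. WT-Tacr acute mice, at 545, 652 and 589 CPM, overlapped the non-stroked WT mice (-0.03 ± 0.08, adjusted p = 0.843, and -0.03 ± 0.11 without mice 1 and 2). Unlike Basp1 and Rtn4r, the fall in Rtn4 was as large within the Imm2 cohort (-0.26 in WT, adjusted p = 0.0745) and with cohort as a covariate (-0.28 in WT, adjusted p = 0.0107, and -0.39 in WT-Tacr delayed mice, adjusted p = 0.0094). Summed oligodendrocyte markers were 4004 to 9769 CPM over all libraries, and of these 6 markers 2 were called higher in WT-Tacr delayed mice and 0 in WT, where the median of their log2 fold changes was 0.30.

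RTN4R is the Nogo receptor, a neuronal membrane protein that binds Nogo, MAG and OMgp. Rtn4r (chromosome 16, 18127642 to 18152408, plus strand) stood at 109.3, 94.9, 109.6 and 104.7 CPM in non-stroked WT mice. WT-Tacr delayed mice had 51.8, 67.8, 47.5, 40.5 and 31.7 CPM, all below the non-stroked mice, a change of -1.13 ± 0.21 (adjusted p = 8.18e-05). Stroked WT mice had 100.5 and 85.9 CPM in the Imm2 cohort and 55.9 and 50.6 CPM in the TF cohort, and their difference of -0.51 ± 0.22 did not pass (adjusted p = 0.0793). Without stroked WT mouse 1 it did (-0.71, adjusted p = 0.0212). With cohort as a covariate the change in WT-Tacr delayed mice was -0.48 (adjusted p = 0.285). Rag2-/- mice had 97.4, 116 and 127 CPM without and 67.8, 89.7 and 84.1 CPM with stroke, which did not overlap, a difference of -0.50 ± 0.25 that did not pass (adjusted p = 0.25). It passed in a fit of only these 6 mice (-0.49, adjusted p = 0.0263) and with the replicate block (-0.55, adjusted p = 0.0324). In WT-Tacr acute mice the difference was -0.22 ± 0.23 (adjusted p = 0.563), and -0.80 ± 0.34 without mice 1 and 2 (adjusted p = 0.103). NSG mice differed by -0.02 ± 0.23.

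Markers of cortical projection neurons moved with Basp1 and Rtn4r. Their sum was 669 to 785 CPM in non-stroked WT, 550 and 550 CPM in Imm2 stroked WT, 309 and 275 CPM in TF stroked WT and 214 to 352 CPM in WT-Tacr delayed mice, and all 6 of these markers were called lower in WT-Tacr delayed and 3 in WT mice. Non-stroked NSG mouse 3 had 420 CPM of these markers, 57.8 CPM of Rtn4r and 390 CPM of Basp1, each the lowest of the 11 non-stroked mice. Summed striatum and subcortex markers were 168 to 297 CPM in non-stroked WT mice. In stroked WT mice they were 367 and 214 CPM (Imm2) and 591 and 583 CPM (TF). They were 409 to 871 CPM in WT-Tacr delayed mice, where 4 of 7 were called higher and 1 lower (27.6% of all genes each). The 4 non-stroked NSG mice had 181, 439, 823 and 1144 CPM of them. The part of neuron content and of the region sampled in these values was not tested. After subtraction of the group means, Basp1 and Rtn4r correlated at r = 0.85 over the 29 libraries, the highest of the 36 pairs among the 9 tested genes, as a description. The genes most like Basp1 over the libraries were Lrfn1, Ywhah and Pitpna (r = 0.981, 0.977 and 0.975) and those most like Rtn4r were Lrrc4, Sept8 and Hapln4 (r = 0.970, 0.969 and 0.969). For Rtn4 they included Eif5a2 and Atp1b1 (r = 0.863 and 0.854). They were for Gap43 Plppr3, Pnck and Pgrmc1 (r = 0.906, 0.859 and 0.857), and for Stmn4 Ensa, Pmm1 and Cadm4 (r = 0.872, 0.870 and 0.856). Jun was most like Ifngr2, Pip5k1b and Ptpra (r = 0.872, 0.870 and 0.863), Klf6 like Npy1r, Zbtb14 and Efl1 (r = 0.808, 0.803 and 0.803) and Sox11 like Nos1, Slc44a5 and Chrm5 (r = 0.756, 0.752 and 0.728).

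The stroke responses of the strains were next compared with that of WT, each relative to its own non-stroked mice. NSG mice also differ from WT by their NOD background and the lack of natural killer cells. All strain libraries were Imm2 while stroked WT held both cohorts, so these differences mix strain with cohort. No member was called for Rag2-/- minus WT (0% of all genes higher and 0% lower, 0 in DESeq2) or for NSG minus WT in edgeR (background 0.0235% and 0.00587%). At an unadjusted p below 0.05 there were 0 of 9 members for Rag2-/- minus WT, where 4.19% of all genes were. There was 1 for NSG minus WT, where 12.7% of all genes were. That member was Jun, which was also the 1 called in DESeq2 for NSG minus WT. The shares of all genes called in DESeq2 are not given, so its counts are not results about the members alone. The difference for Atf3 was -0.23 ± 0.92 in Rag2-/- and 0.31 ± 0.86 in NSG mice, in each case with an SE larger than the difference. For Rtn4 it was 0.00 ± 0.11 and -0.04 ± 0.10.

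Among non-stroked mice no member differed between the strains past the test. None of the 9 was called between non-stroked Rag2-/- and WT mice (background 0% and 0.00587%), between NSG and WT mice (4.84% and 4.92%) or between NSG and Rag2-/- mice (3.07% and 3.26%). DESeq2 called 0 in each, with the shares of all genes not given. At an unadjusted p below 0.05 there were 0, 0 and 1 members in the same order, the last Rtn4 (0.16 ± 0.08). The shares of all genes at that limit were 2.05%, 22.9% and 18.2%. The 4 NSG mice had 50.1 to 52.9 CPM of Klf6, under every WT and Rag2-/- mouse at 54.9 to 67.9 CPM, with differences of -0.20 ± 0.12 and -0.22 ± 0.13 (adjusted p = 0.32 and 0.385).

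Tacrolimus was compared among stroked mice directly. Against stroked WT, no member was called in edgeR in WT-Tacr acute or WT-Tacr delayed mice (background 0% and 0% in each). At an unadjusted p below 0.05 there were 2 of 9 members in WT-Tacr acute mice, where 12.7% of all genes were. There were 4 in WT-Tacr delayed mice, where 20.3% of all genes were. DESeq2 called 0 in WT-Tacr acute and 1 in WT-Tacr delayed mice, Basp1 (-0.56, adjusted p = 0.0434). In edgeR the Basp1 difference was -0.57 ± 0.17 (adjusted p = 0.154), and it passed without stroked WT mouse 3 (-0.69, adjusted p = 0.0456) or mouse 4 (-0.71, adjusted p = 0.0279). Without stroked WT mouse 4, Rtn4r passed too (-0.75, adjusted p = 0.0379). Without WT-Tacr acute mouse 3, Atf3 was lower in acute than in WT mice (-2.62, adjusted p = 0.00454). In the TF cohort alone the Basp1 difference of WT-Tacr delayed from WT mice was -0.07 and that of Rtn4r -0.15. Between the tacrolimus groups, delayed minus acute, Atf3 was higher (1.80 ± 0.57, adjusted p = 0.0286) and Basp1 (-0.74 ± 0.19, adjusted p = 0.0121), Rtn4 (-0.24 ± 0.07, adjusted p = 0.0229) and Rtn4r (-0.90 ± 0.22, adjusted p = 0.0117) were lower, where 10.4% of all genes were higher and 9.96% lower. Without WT-Tacr acute mice 1 and 2, which leaves 1 acute mouse, 0 members were called. The differences of Atf3 (0.46), Basp1 (-0.35) and Rtn4r (-0.32) were then smaller, while that of Rtn4 (-0.23) was close to its value with them. Leaving out either mouse also left 0 calls, leaving out acute mouse 3 left 4, and leaving out delayed mouse 5 left 2. In the TF cohort alone 0 were called, at 1.29, -0.47, -0.27 and -0.73. The shares of all genes called in DESeq2 and in these smaller fits are not given, so their counts are not results about the members alone.

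The lists around these genes, without the members, put the values above beside related genes. Their counts stand against the shares of all tested genes called higher and lower given above, 15.2% and 11.6% in WT, 6.18% and 2.36% in WT-Tacr acute, 27.6% and 27.6% in WT-Tacr delayed, 13% and 8.89% in NSG and 6.71% and 1.53% in Rag2-/- mice. Among 17 other regeneration-associated transcription factors, 2 were called higher and 6 lower in WT, 0 and 1 in WT-Tacr acute, 2 and 6 in WT-Tacr delayed, 2 and 2 for Rag2-/- mice, and 6 and 1 for NSG mice. Their median log2 fold change was -0.02, -0.18, -0.08, 0.08 and 0.55 in the same order. Cebpd, an inducer of the acute phase response, was higher by 1.16 ± 0.37 in WT, 1.68 ± 0.36 in WT-Tacr delayed, 1.86 ± 0.44 in Rag2-/- and 2.79 ± 0.40 in NSG mice. It was not called in WT-Tacr acute mice (1.14 ± 0.40, and 1.58 without mice 1 and 2). The immediate early gene Fos was lower by 1.44 in WT (-1.44 ± 0.41), in WT-Tacr delayed (-1.04 ± 0.38) and in Rag2-/- mice (-1.83 ± 0.48), and Junb was lower in WT (-1.10 ± 0.29) and WT-Tacr delayed mice (-1.05 ± 0.28). In WT both genes overlapped, with Fos at 20.8 to 103 CPM without and 12.4 to 32.1 CPM with stroke. Junb stood at 60 to 204 and 28.4 to 63.7 CPM. Non-stroked WT mouse 3 was the highest for both and enters all WT and NSG minus WT values of these genes.

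In NSG mice Cebpb (1.57 ± 0.32) and Fosl1 (2.43 ± 0.85, on 0 to 4 counts per non-stroked library and 5 to 13 per stroked library) were higher. Stat3 was higher in WT (0.62 ± 0.13), WT-Tacr delayed (0.87 ± 0.13) and Rag2-/- mice (0.54 ± 0.15). It was not called in WT-Tacr acute mice (0.33 ± 0.14, and 0.69 without mice 1 and 2). Klf7 was lower in all 5 groups, with changes of -0.60 ± 0.09 in WT, -0.35 ± 0.09 in WT-Tacr acute (-0.53 ± 0.14 without mice 1 and 2), -0.56 ± 0.08 in WT-Tacr delayed, -0.37 ± 0.09 in NSG and -0.38 ± 0.10 in Rag2-/- mice. Fos and Junb in NSG mice were chosen after their values were seen, since the Jun difference had the opposite sign there. Fos stood at 9.53 to 31.4 CPM without and 30.8 to 41.1 CPM with stroke and Junb at 44.8 to 83.9 and 93.1 to 126 CPM, and the NSG response exceeded the WT response by 2.31 ± 0.59 for Fos (adjusted p = 0.124) and 1.91 ± 0.43 for Junb (adjusted p = 0.0865), neither of which passed.

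**Figure D4:**
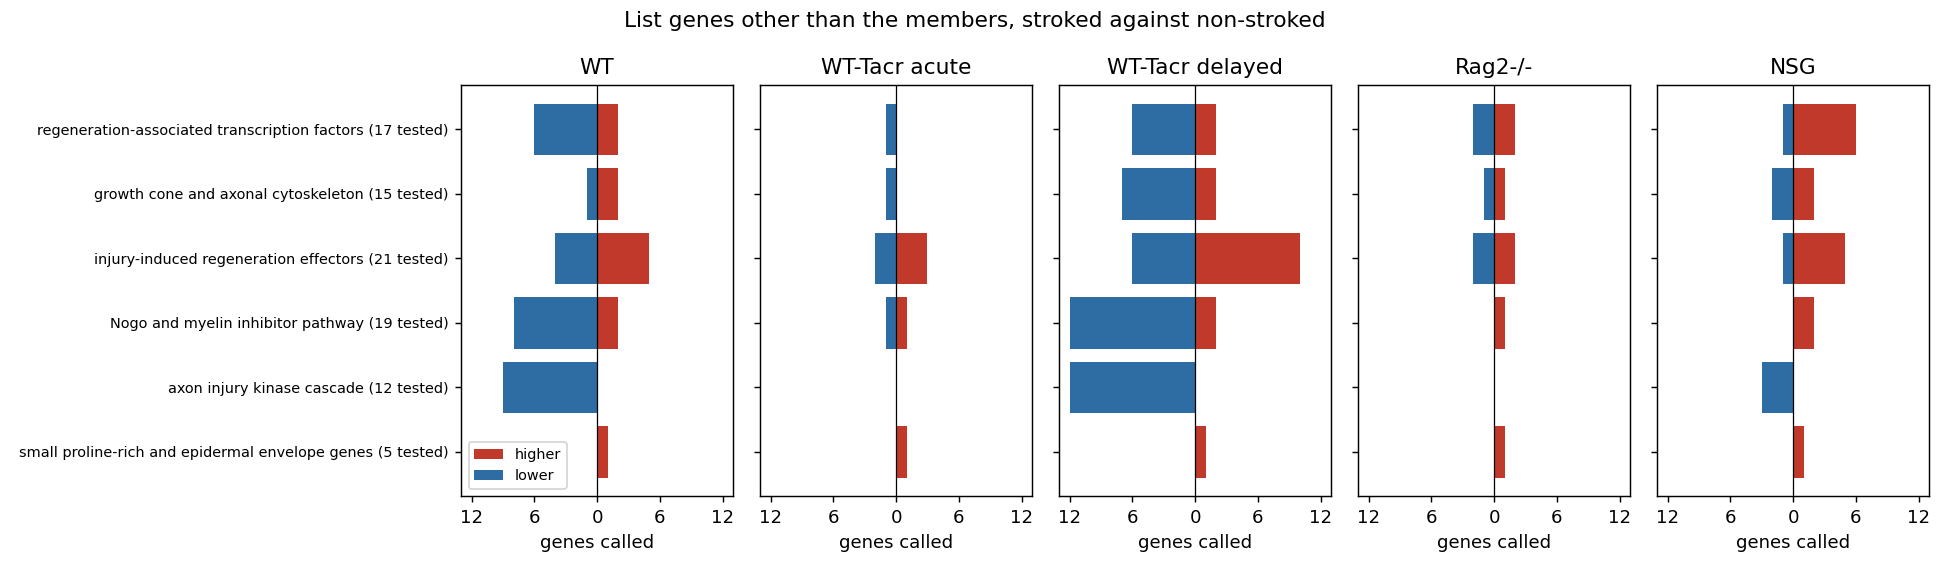
Number of genes called higher (red, right) and lower (blue, left) after stroke at an adjusted p below 0.05 in 6 lists without the members, by group, with the number tested in parentheses. The kinase list holds 9 lower calls in WT and 12 in WT-Tacr delayed mice, and the injury-induced effectors 5 and 10 higher calls.

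Among 15 other growth cone and axonal cytoskeleton genes, 2 were higher and 1 lower in WT, 0 and 1 in WT-Tacr acute, 2 and 7 in WT-Tacr delayed, 1 and 1 for Rag2-/- mice, and 2 and 2 for NSG mice. Cotl1, an actin-binding protein that leukocytes make as well, was called higher in 4 groups, by 0.92 ± 0.15 in WT, 1.03 ± 0.15 in WT-Tacr delayed, 0.95 ± 0.18 in Rag2-/- and 1.20 ± 0.16 in NSG mice. In WT-Tacr acute mice its difference was 0.37 ± 0.16, not called, and 0.82 without mice 1 and 2. Map1b, a microtubule-associated protein of growing axons, was lower in WT (-0.78 ± 0.18), WT-Tacr acute (-0.68 ± 0.19, and -1.06 ± 0.28 without mice 1 and 2), WT-Tacr delayed (-0.96 ± 0.17) and NSG mice (-0.66 ± 0.19). Tubb2b was higher in WT (0.38 ± 0.14), WT-Tacr delayed (0.43 ± 0.13) and NSG mice (0.51 ± 0.15). Crmp1 was lower in WT-Tacr delayed (-0.24 ± 0.07) and Rag2-/- mice (-0.32 ± 0.09), Stmn1 in WT-Tacr delayed (-0.88 ± 0.18) and Dcx in NSG mice (-0.90 ± 0.23). The list's median lay between -0.22 in Rag2-/- and 0.10 in WT mice.

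Of 23 other injury-induced effectors 21 were tested, and 5 were higher and 4 lower in WT, 3 and 2 in WT-Tacr acute, 10 and 6 in WT-Tacr delayed, 2 and 2 for Rag2-/- mice, and 5 and 1 for NSG mice, with medians of 0.33, 0.04, 0.55, 0.05 and -0.11. Cd44, a hyaluronan receptor, rose by 2.83 ± 0.44 in WT, 1.78 ± 0.47 in WT-Tacr acute, 3.24 ± 0.44 in WT-Tacr delayed, 2.73 ± 0.51 in Rag2-/- and 1.96 ± 0.43 in NSG mice. Anxa2, a calcium-dependent membrane-binding protein, rose by 2.26 ± 0.36, 1.42 ± 0.38, 2.89 ± 0.36, 1.84 ± 0.42 and 2.11 ± 0.38 in the same order. Without acute mice 1 and 2, Cd44 was higher by 2.97 ± 0.38 and Anxa2 by 2.43 ± 0.37 in that group. Socs3, a feedback inhibitor of cytokine signalling that restrains axon regrowth, rose in WT (1.34 ± 0.23), WT-Tacr acute (1.24 ± 0.24, and 1.16 ± 0.27 without mice 1 and 2), WT-Tacr delayed (1.14 ± 0.22) and NSG mice (1.06 ± 0.24). The neuropeptide genes gave Gal higher in WT-Tacr delayed mice (2.93 ± 0.99, on 2 to 33 counts against 0 to 5) and Adcyap1 lower in WT (-0.68 ± 0.21), WT-Tacr delayed (-0.82 ± 0.20) and Rag2-/- mice (-0.78 ± 0.24), and Gadd45a was higher in NSG mice (1.31 ± 0.21). Cd44, Anxa2 and Socs3 are made by glia and leukocytes too, and the part of these cells was not tested.

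Of 19 other genes of the Nogo pathway, 2 were higher and 8 lower in WT, 1 and 1 in WT-Tacr acute, 2 and 12 in WT-Tacr delayed, 1 and 0 for Rag2-/- mice, and 2 and 0 for NSG mice, with medians of -0.24, -0.18, -0.40, -0.21 and -0.04. The receptors split. Pirb, a Nogo receptor that is mainly a leukocyte receptor, rose by 4.31 ± 0.60 in WT, 3.07 ± 0.64 in WT-Tacr acute (4.38 ± 0.55 without mice 1 and 2), 5.17 ± 0.60 in WT-Tacr delayed, 3.61 ± 0.68 in Rag2-/- and 3.39 ± 0.60 in NSG mice, from 7 to 9 counts per non-stroked WT library to 91 to 210 in stroked WT. S1pr2, a sphingosine phosphate receptor that binds Nogo-A, rose in WT (1.10 ± 0.27) and WT-Tacr delayed mice (1.54 ± 0.26). It was not called in WT-Tacr acute mice (0.68 ± 0.29, and 1.30 without mice 1 and 2). The co-receptor Lingo1 was lower in WT (-0.61 ± 0.18) and WT-Tacr delayed mice (-1.02 ± 0.17) and the receptor homologue Rtn4rl2 in WT-Tacr delayed mice (-1.42 ± 0.23). In WT-Tacr acute mice neither was called, at -0.27 for Lingo1 and -0.57 for Rtn4rl2. Without mice 1 and 2 these values were -0.81 and -1.04. Of the effectors, Rock2 was lower in WT (-0.59 ± 0.10), WT-Tacr acute (-0.37 ± 0.11, and -0.66 ± 0.15 without mice 1 and 2) and WT-Tacr delayed mice (-0.72 ± 0.09), and Rhoa was higher in NSG mice (0.31 ± 0.08).

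In the kinase cascade that carries an axon injury signal to JUN, every called gene was lower. Of 12 genes, 0 were higher and 9 lower in WT, 0 and 0 in WT-Tacr acute (2 at an unadjusted p below 0.05), 0 and 12 in WT-Tacr delayed, 0 and 0 in Rag2-/- (5 unadjusted) and 0 and 3 in NSG mice, with medians of -0.28, -0.15, -0.44, -0.22 and -0.20. The JUN kinase genes Mapk10 (-0.44 ± 0.14 in WT and -0.87 ± 0.13 in WT-Tacr delayed mice), Mapk9 (-0.39 ± 0.09 in WT, -0.49 ± 0.09 in WT-Tacr delayed and -0.43 ± 0.10 in NSG mice) and Mapk8 (-0.36 ± 0.08, -0.49 ± 0.08 and -0.41 ± 0.09 in the same groups) were among the genes called lower. In WT-Tacr acute mice Mapk10, Mapk9 and Mapk8 were not called, at -0.25, -0.12 and -0.24. Without mice 1 and 2 they were at -0.65, -0.39 and -0.45. Also called lower were Map3k13 in WT (-0.38 ± 0.14) and WT-Tacr delayed mice (-0.40 ± 0.13) and the scaffold Mapk8ip3 in WT (-0.24 ± 0.09), WT-Tacr delayed (-0.24 ± 0.08) and NSG mice (-0.28 ± 0.10). Of the axon degeneration and survival genes, Sarm1 was lower in WT-Tacr delayed mice (-0.65 ± 0.13) and Nmnat2 in WT (-0.33 ± 0.12) and WT-Tacr delayed mice (-0.64 ± 0.11). In WT-Tacr acute mice neither was called, at -0.32 for Sarm1 and -0.18 for Nmnat2. Without mice 1 and 2 these values were -0.62 and -0.52.

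These list counts moved with cohort and with the libraries in the fit. Within the Imm2 cohort, with 2 of the 4 stroked WT mice, stroke in WT called 0 of the 12 kinase genes lower, at a median of -0.13. It called 1 higher and 1 lower of the Nogo genes, where 6.51% of all genes were higher and 2.20% lower. Counts in the strains rose in that fit: 5 of 12 kinase genes were lower in NSG mice, where 9.17% of all genes were lower. In Rag2-/- mice 2 of 19 Nogo genes were lower, where 2.13% of all genes were. With cohort as a covariate, WT-Tacr delayed mice had 1 of 12 kinase genes, 1 of 19 Nogo genes and 0 of 15 growth cone genes called lower, and 3 of 21 effectors called higher, in a fit where 5.71% of all genes were higher and 3.29% lower. Without WT-Tacr acute mice 1 and 2, where 11.7% of all genes were higher and 6.996% lower, the calls higher and lower in that group were 2 and 2 for the transcription factors, 2 and 1 for the growth cone genes, 4 and 2 for the effectors, 2 and 5 for the Nogo genes, 0 and 6 for the kinase genes and 1 and 0 for the epidermal envelope genes. The medians were -0.14, 0.03, 0.31, -0.30, -0.41 and -0.13 in the same order. Of the 9 neuron markers, 6 were called lower in WT, 7 in WT-Tacr delayed, 1 in NSG and 0 in WT-Tacr acute and Rag2-/- mice, and the part of neuron content in the list counts was not tested.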

How the data were processed

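The deposited files hold raw read counts per gene as the authors made them: polyA RNA was captured, stranded libraries were sequenced, and reads were aligned and counted at a core facility. The aligner, the genome build and the use of strand are not given in the sources used here. Gene names, positions and exon lengths are from GENCODE M21 (GRCm38), which held 25712 of 25746 identifiers. Groups, treatment and cohort were taken from the sample labels, and replicate numbers follow accession order, and 2 files whose names disagreed with the sample titles were assigned by their GEO record. P-values measure the spread between these libraries, taken as separate mice.

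Counts were tested in R 4.3.3 with edgeR 4.0.16 (TMM, filterByExpr by group, quasi-likelihood F test) in 1 fit of 8 groups and 17031 genes, with 13 comparisons. The SE is the absolute log2 fold change divided by the square root of F. CPM use TMM-scaled library sizes, and log2 CPM a prior count of 2. DESeq2 1.42.0, RLE scaling, other filters, cohort terms, single cohorts, a replicate block and omission of each mouse were alternatives, and those on acute mice 1 and 2, on choroid plexus markers, on lists and on cohort in delayed mice were added after the values were seen. All 10 members were named in every comparison, with up to 3 called genes per list and stroke comparison by absolute log2 fold change, and the 3 genes most like each member, of which 1 each for Atf3 and Rtn4 is not reported here. Members and lists were chosen with earlier results of these data known. In data simulated for stroke in WT with 16765 genes, 87 of 100 2-fold and 99 of 100 4-fold changes were recovered with 5 false calls. The changed genes were drawn from those above a limit on the mean count, and no cohort difference was simulated. Changes under 2-fold, as for most members, and the effect of cohort were therefore not covered.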

Additional observations from a re-analysis of the deposited data

Results flagged for a closer look

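Within groups of 4 or 5 mice, 5 of 36 gene and group combinations held a mouse far from the others by Dixon's criterion, which chance alone flags in about 1 in 20. Non-stroked NSG mouse 3 stood out for a pair of genes, with 29.4 CPM of Sox11 where the next mouse had 19.1 CPM, and with 57.8 CPM of Rtn4r where the next had 91.2 CPM. Non-stroked WT mouse 3 had 89.9 CPM of Jun, above 60.9 CPM in the next. Among WT-Tacr delayed mice, mouse 2 had 14.3 CPM of Sox11, below 19.5 CPM, and mouse 5 had 49.6 CPM of Klf6, above 42.9 CPM. Non-stroked NSG mouse 3 also had the lowest sum of cortical projection neuron markers of the non-stroked mice, 420 CPM, and the part of tissue composition was not tested.

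The stroke effect differed between the delayed and the acute tacrolimus groups by a test of the difference itself, in edgeR, for 4 genes: Atf3 (1.80 on the log2 scale), Basp1 (-0.74), Rtn4 (-0.24) and Rtn4r (-0.90). Without acute mice 1 and 2 none of them passed, at 0.46, -0.35, -0.23 and -0.32, so that of Rtn4 kept its size, and both groups share the same non-stroked mice.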

How the results depend on the processing

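Of 353 alternative values for the 20 called results of single members, 246 kept their direction and call, 106 kept the direction without passing and 1 reversed. RLE scaling, no filter on low counts and a minimum mean of 1 CPM changed no call of a member. With cohort as a covariate the members called numbered 2 in WT, 0 in WT-Tacr acute and 2 in WT-Tacr delayed mice. Without it they numbered 5, 2 and 6. The shares of all genes called higher and lower went from 15.2% and 11.6% to 7.42% and 4.89% in WT. In WT-Tacr acute mice they went from 6.18% and 2.36% to 0.258% and 0.047%. In WT-Tacr delayed mice they went from 27.6% and 27.6% to 5.71% and 3.29%. Within the Imm2 cohort 1 member was called in WT, where 6.51% of all genes were higher and 2.20% lower. The shares are not given for the other settings of this section, so those counts are not results about the members alone. Within the TF cohort 0 were called between the tacrolimus groups. At an absolute log2 fold change above 1 there were 1 in WT, WT-Tacr acute and NSG mice and between the tacrolimus groups, and 3 in WT-Tacr delayed mice. Fits of only the groups compared called 0 in WT-Tacr acute mice, 7 in WT-Tacr delayed mice (Gap43 added), 2 in Rag2-/- mice, 1 in NSG mice and 0 between the tacrolimus groups. DESeq2 called 2 in Rag2-/- mice, 1 for NSG minus WT and 1 for WT-Tacr delayed minus WT. Libraries with at most 100 CPM of choroid plexus markers left 0 in WT, WT-Tacr acute and Rag2-/- mice, with fewer samples. That limit left 1 WT-Tacr delayed and 1 non-stroked NSG mouse, so no count is given for their comparisons. Without acute mice 1 and 2, 0 were called between the tacrolimus groups. The cause of the other changes was not tested.

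Values that changed direction were Atf3 in WT-Tacr acute mice within the Imm2 cohort (-0.19, 1 acute mouse), Atf3 for WT-Tacr acute minus WT without acute mice 1 and 2 (0.67) and at the choroid plexus limit (0.33), and Basp1 in WT-Tacr acute mice with cohort as a covariate (0.027). Leaving out each mouse in turn gave 1 to 5 calls in WT, 0 to 4 in WT-Tacr acute, 6 in WT-Tacr delayed, 0 to 1 in Rag2-/-, 1 to 3 in NSG mice, 0 to 1 for NSG minus WT, 0 to 1 for WT-Tacr acute minus WT, 0 to 2 for WT-Tacr delayed minus WT and 0 to 4 between the tacrolimus groups. A single mouse left in a group was assumed to vary like the others.

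Whether replicate numbers pair the samples could not be settled, since each stroke comparison held only 2 or 3 same-numbered pairs. Same-numbered deviations correlated at -0.0097 and 0.0501 for WT and at 0.119 and 0.135 for the Rag2-/- strain. For NSG mice they lay between -0.227 and 0.185. With the replicate block 2 members were called for stroke in WT, 2 for stroke in Rag2-/- mice and 1 for NSG mice, and without the block in the same samples 1, 1 and 1. Sprr1a was limited by depth.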
